A study of Homo sapiens with 6 samples.

Results

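The clustered protocadherins are a family of cell-surface adhesion proteins whose genes lie side by side on human chromosome 5. They were taken here as the protein-coding genes of GENCODE on that chromosome whose symbol starts with PCDHA, PCDHB or PCDHG, which gave 53 of 20163 protein-coding genes, with 15 in the alpha, 16 in the beta and 22 in the gamma subfamily. Accessibility at these genes was read from peak lists of ATAC-seq, an assay in which the Tn5 transposase inserts sequencing adapters into open chromatin, so that fragments pile up at accessible sites. The cells were GM12878, a human lymphoblastoid B-cell line, with no treatment or antibody named in the labels, and all 6 libraries came from cells fixed with 1% PFA. The libraries differed in the step that reverses the crosslinks, with 2 replicates each of an old buffer that held SDS followed by DNA purification, a new buffer without SDS followed by purification, and the new buffer with PCR directly on the unpurified mixture. The sources disagree on the lysis detergent, the EDTA stop and the discarded supernatant, which the methods describe for the unpurified workflow and the labels for every library, so these steps cannot be told apart from the buffer and purification in a comparison with the unpurified libraries. No source used here says whether replicates came from separate cultures, so the spread between them may be technical.

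Each alpha and gamma variable exon has its own promoter and is spliced to constant exons shared by its subfamily, whereas each beta gene stands alone. Neurons switch on a small, largely random set of these promoters, which gives each neuron its own surface identity for self-recognition. Most of the promoters, but not all, share a conserved sequence box. CTCF and cohesin join chosen promoters to distant enhancers, while DNA methylation and SETDB1- and SMCHD1-dependent silencing keep others shut. The C-type genes PCDHAC1, PCDHAC2, PCDHGC3, PCDHGC4 and PCDHGC5 are expressed less selectively than the others, and PCDHGC4 is known for its part in neuronal survival.

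Among the clustered protocadherins, peaks at gene starts were found almost entirely at gamma genes. A start window, defined as 500 bp on each side of the gene's first annotated base, was called in a library when any peak overlapped it. At least 1 library called the start windows of 9 of 53 clustered protocadherins, or 17.0%, and the same held for 52.0% of all protein-coding genes. All 6 libraries called 3 of the 53, or 5.66%, beside 38.1% of all protein-coding genes. No library called any of the 15 alpha genes, 1 library called 1 of 16 beta genes, and 8 of 22 gamma genes, or 36.4%, were called in at least 1 library. The 3 genes called in all 6 libraries, PCDHGB3, PCDHGA10 and PCDHGC3, were gamma genes.

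**Figure D1:**
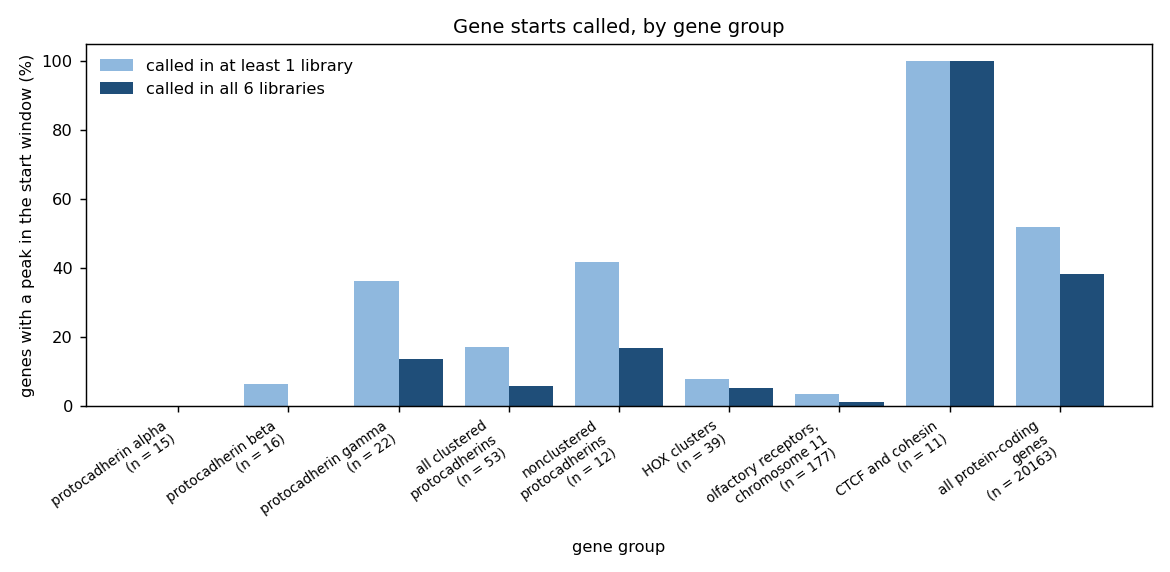
Share of genes with a peak in the start window (%), by gene group, with the number of genes in brackets. Light bars give genes called in at least 1 library and dark bars those called in all 6. The alpha group has no bar, and the gamma group reaches 36.4% beside 52.0% of all protein-coding genes.

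The promoters that the results turn on are shown here as the 150 bases just before the gene start, all on the plus strand of chromosome 5 in hg19. Capitals mark a 9-base element of the subfamily with up to 1 mismatch, described after the sequences. The first set holds the 3 gamma promoters that all 6 libraries called, at chr5:140749659-140749808, chr5:140792404-140792553 and chr5:140855364-140855513.
PCDHGB3: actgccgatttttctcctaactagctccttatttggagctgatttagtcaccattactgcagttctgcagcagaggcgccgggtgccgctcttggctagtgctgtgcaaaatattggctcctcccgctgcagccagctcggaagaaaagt
PCDHGA10: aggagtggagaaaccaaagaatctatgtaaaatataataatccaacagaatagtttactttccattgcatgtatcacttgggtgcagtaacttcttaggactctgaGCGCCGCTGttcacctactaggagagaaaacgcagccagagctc
PCDHGC3: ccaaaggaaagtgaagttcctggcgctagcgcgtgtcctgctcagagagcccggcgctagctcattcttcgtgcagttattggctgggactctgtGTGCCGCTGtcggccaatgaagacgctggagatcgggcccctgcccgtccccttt

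The second set holds the 3 gamma promoters that 4 libraries called, at chr5:140797062-140797211, chr5:140800464-140800613 and chr5:140809924-140810073.
PCDHGB7: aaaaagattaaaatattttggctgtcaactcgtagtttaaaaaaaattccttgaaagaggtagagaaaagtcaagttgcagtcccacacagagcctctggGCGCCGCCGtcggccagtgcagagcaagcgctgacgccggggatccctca
PCDHGA11: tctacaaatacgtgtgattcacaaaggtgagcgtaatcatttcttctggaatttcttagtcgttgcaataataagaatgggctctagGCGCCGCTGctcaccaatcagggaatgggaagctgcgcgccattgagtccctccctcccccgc
PCDHGA12: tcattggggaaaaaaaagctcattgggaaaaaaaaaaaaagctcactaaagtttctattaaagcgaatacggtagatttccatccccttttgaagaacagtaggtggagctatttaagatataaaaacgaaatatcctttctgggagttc

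The last set shows, for contrast, the first alpha gene and the second beta gene in genome order, which no library called, at chr5:140165571-140165720 and chr5:140474041-140474190. They were picked as the first uncalled genes of their subfamilies with the element unchanged in the printed stretch, so their capitals follow from the choice.
PCDHA1: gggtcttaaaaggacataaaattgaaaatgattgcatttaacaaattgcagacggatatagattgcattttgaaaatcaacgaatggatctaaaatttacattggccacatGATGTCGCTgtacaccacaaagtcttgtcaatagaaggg
PCDHB2: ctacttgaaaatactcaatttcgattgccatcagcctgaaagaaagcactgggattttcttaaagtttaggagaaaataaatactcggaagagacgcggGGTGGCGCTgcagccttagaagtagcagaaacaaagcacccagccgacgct

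The capital element was found as the 9-base word carried by the most members of a subfamily in the 500 bp before the start, so its frequency among members is a description. In alpha it was GATGTCGCT, in 10 of 15 promoters, in beta GGTGGCGCT, in 13 of 16, and in gamma GCGCCGCTG, in 9 of 22. All 3 words hold the letters CGCT, which are the core of the conserved box. Over whole start windows, on either strand, the exact words were in 10 of 15 alpha, 14 of 16 beta and 10 of 22 gamma members. Over the start windows of all protein-coding genes, on either strand, the alpha word was in 0.298%, the beta word in 1.81% and the gamma word in 4.13%. With up to 1 mismatch on either strand, 11 of 15 alpha, 16 of 16 beta and 18 of 22 gamma start windows held their word, beside 10.8%, 35.2% and 47.8% of all protein-coding start windows. On the gene's own strand 16 gamma members carried it. PCDHGB3, called in all 6 libraries, was one of the 6 gamma genes without it on that strand, although its printed stretch holds the letters CGCT. With up to 1 mismatch all 15 uncalled beta genes had theirs, PCDHB1 as GGTGGTGCT, which lacks CGCT. The called genes PCDHGB7 and PCDHB6 carried GCGCCGCCG and GGTGGCGGT, which lack CGCT too, so the capitals at PCDHGB7 do not hold the core. PCDHGA12 carried the gamma word 31 bp after its start, outside the printed stretch. A second search used AGNNGGCGC, a stretch of the CTCF motif that takes in part of the box, on both strands. It matched 9 of 53 start windows, or 17.0%, beside 28.3% of all protein-coding start windows, and it matched none of the 8 called gamma windows.

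At the 3 starts called in all 6 libraries, the strength of the peaks overlapped between the protocols. The strength of a peak is given as the −log10 q that the peak caller assigned to its summit, in the order old buffer replicates 1 and 2, purified new buffer replicates 1 and 2, and unpurified new buffer replicates 1 and 2. PCDHGB3 (ENSG00000262209), whose start is at position 140749809, had −log10 q of 14.05, 11.36, 7.16, 12.36, 14.24 and 11.85. Its lowest value came from replicate 1 of the purified new buffer, and the 3 protocols overlapped. The fragments at its summit, recovered from the fold enrichment and p value, numbered 23, 19, 14, 19, 24 and 20. Its peaks ran from 292 to 441 bp, and their summits lay from 133 bp before to 16 bp after the start.

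PCDHGA10 (ENSG00000253846, start at 140792554) had −log10 q of 7.22, 8.62, 8.35, 5.02, 12.44 and 6.83. Its highest and its second lowest value were the 2 unpurified libraries, so the protocols overlapped here too. Its summits held 17 to 28 reads over a local background of 2.74 to 3.98 reads, a fold enrichment of 4.09 to 5.89.

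PCDHGC3 (ENSG00000240184, start at 140855514) is the first of the C-type gamma genes and a broadly expressed member of the family. Its −log10 q values were 16.95, 5.27, 11.47, 7.26, 13.69 and 7.84. In each protocol replicate 1 was the higher of the pair, and the highest and the lowest value were the 2 old-buffer libraries. Its peaks were also the most variable in width, from 206 to 785 bp, and the widest reached 626 bp into the gene. The other C-type genes, PCDHAC1, PCDHAC2, PCDHGC4 and PCDHGC5, were called in no library.

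**Figure D2:**
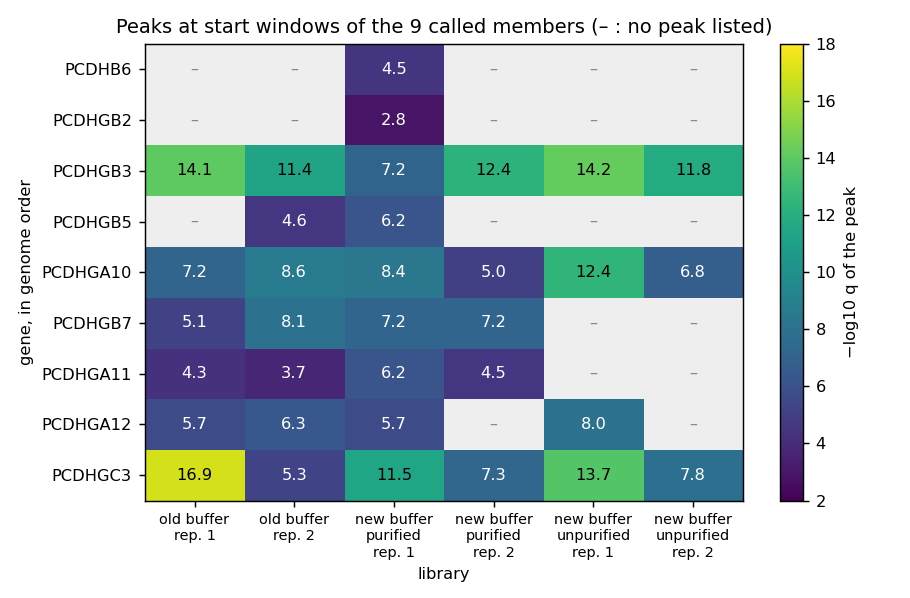
The −log10 q of the peak at each called start window, with the 9 called genes in genome order as rows and the 6 libraries as columns. Grey cells with a dash mark libraries that listed no peak. PCDHGB3, PCDHGA10 and PCDHGC3 are filled in all 6 columns, and replicate 1 of the purified new buffer is filled in all 9 rows.

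3 further gamma genes were called in 4 libraries each. PCDHGB7 (ENSG00000254122, start at 140797212) had −log10 q of 5.14 and 8.05 in the old-buffer libraries and 7.19 and 7.22 in the purified new-buffer libraries, with no peak in either unpurified library. PCDHGA11 (ENSG00000253873, start at 140800614) was called in the same 4 libraries, at 4.30, 3.72, 6.25 and 4.51. PCDHGA11 was the weaker of these neighbours, and only 1 of its 4 peaks kept a −log10 q of at least 5. PCDHGA12 (ENSG00000253159, start at 140810074) had 5.73 and 6.31 in the old-buffer libraries, 5.73 in replicate 1 of the purified and 8.04 in replicate 1 of the unpurified new buffer.

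The remaining called members rested on 1 or 2 libraries and few reads. PCDHGB5 (ENSG00000276547, start at 140777514) was called in old-buffer replicate 2 at 4.55 with 11 reads and in purified new-buffer replicate 1 at 6.24 with 13 reads. PCDHGB2 (ENSG00000253910, start at 140739561) was called in purified new-buffer replicate 1 only, at 2.81 with 9 reads. PCDHB6 (ENSG00000113211, start at 140529638), the 1 beta gene called, was found in that same library at 4.49 with 11 reads. Without that library 7 members in place of 9 were called in at least 1 library, and the 3 called in all libraries remained 3.

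The 34 peaks at member starts were modest in strength and close to the start. Their summits held 9 to 32 reads with a median of 19, and 9 of the 34 were at or above the median −log10 q of their own library. All 34 summits lay within 200 bp of the annotated start, from 160 bp before to 151 bp after it, with a median of 6 bp after. Peak widths ran from 200 to 785 bp with a median of 330 bp.

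**Figure D3:**
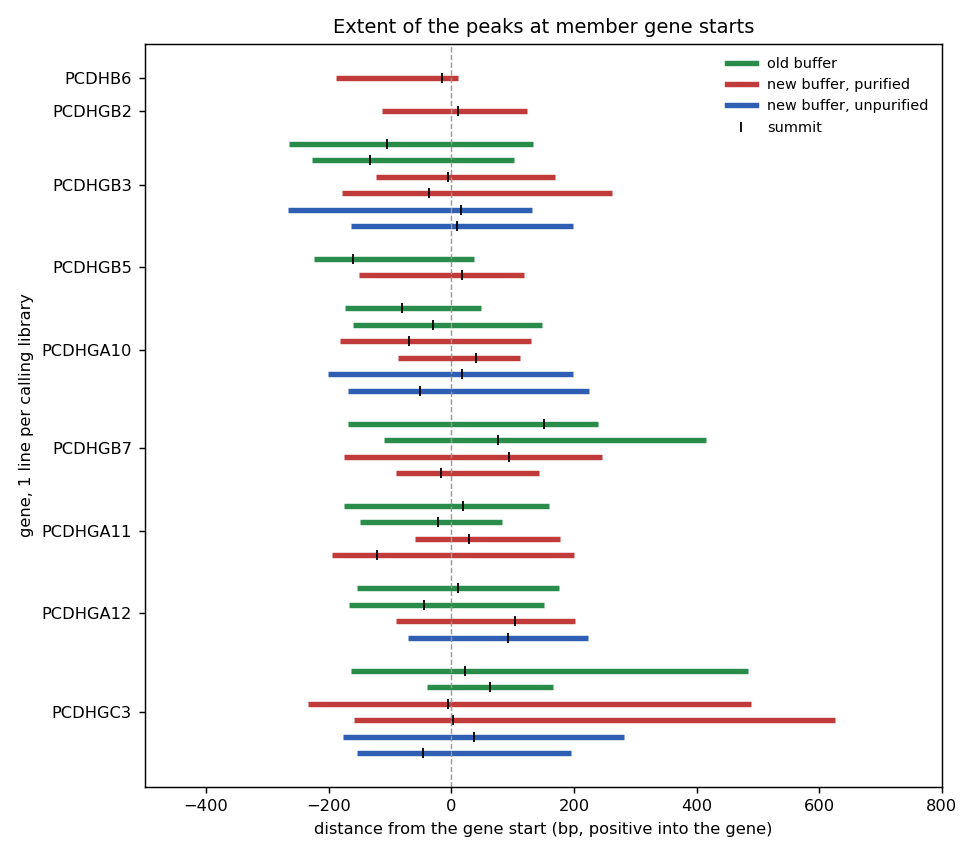
Extent of each of the 34 peaks at called member starts, in bp from the gene start with positive values into the gene, 1 line per calling library and coloured by protocol. Black ticks are summits, which all lie within 200 bp of the start, and the longest lines are those of PCDHGC3.

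Base composition differed between the subfamilies and from other genes. The start windows had a median GC content of 43.8% in alpha, 42.5% in beta and 46.8% in gamma, beside 59.1% over all protein-coding genes. The median ratio of observed to expected CpG was 0.775 in alpha, 0.492 in beta and 0.661 in gamma, beside 0.686 over all genes. The following classes were formed after the calls had been seen. A window was termed CpG-rich at a GC content of at least 50% and a ratio of at least 0.6. Among CpG-rich windows of all protein-coding genes 77.3% were called in at least 1 library and 59.6% in all 6. The 5 CpG-rich members were PCDHAC1, PCDHAC2, PCDHGB6, PCDHGC3 and PCDHGC4, and only PCDHGC3 was called. PCDHAC1 had 63.0% GC and a ratio of 0.789 with no peak closer than 114840 bp. Among the windows that were not CpG-rich, 17.8% of all genes and 8 of 48 members, or 16.7%, were called in at least 1 library, so members stood close to the background. In all 6 libraries these shares were 9.04% of all genes and 4.17% of members, which were 2 genes. The second class splits when the ratio is used: with a GC content under 50% and a ratio of at least 0.6, 69.9% of 418 genes were called, of which the members made up 28 with 8 called, or 28.6%. With a ratio under 0.6, 15.2% of all genes and 0 of 20 members were called. The 8 called and 14 uncalled gamma genes had overlapping ratios, with medians of 0.688 and 0.654.

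**Figure D4:**
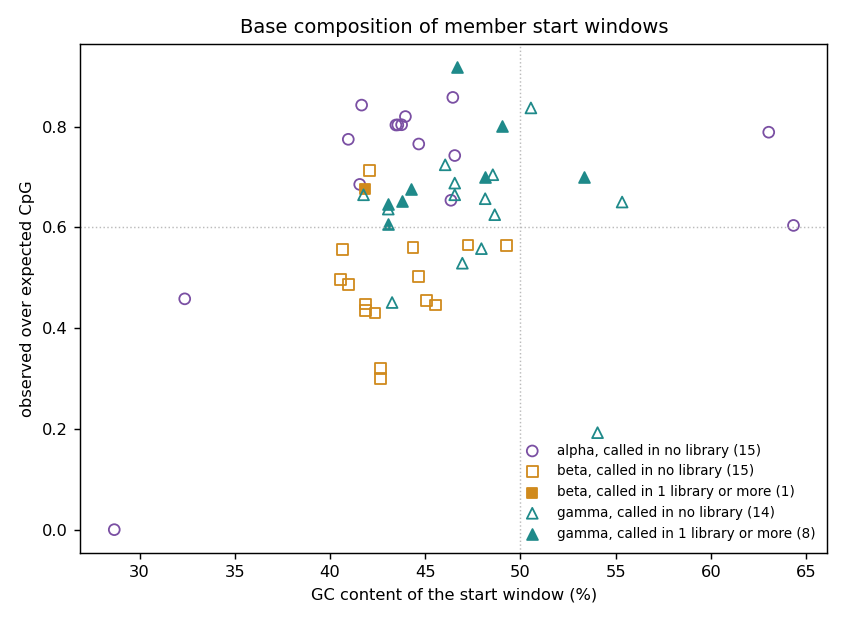
GC content (%) against the ratio of observed to expected CpG for the start windows of the 53 members, with the subfamily given by colour and shape. Filled symbols are genes called in 1 library or more, and dotted lines mark 50% GC and a ratio of 0.6. All 9 filled symbols lie above the ratio of 0.6, among many open ones.

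Near-identical copies limit what can be said of some members, since reads that map equally well to several places were removed by the mapping quality filter. Of the 53 start windows 31 had a second copy elsewhere in the genome by sequence search. The matches had 82.5% to 99.3% identity, with a median of 94.2%, and ran over 116 to 1002 bp, so many were partial or diverged. In 29 cases that copy lay in the start window of another member. Of these 31, 5 were called, and of the 13 with more than 95% identity, 2 were called, namely PCDHGB5 and PCDHGB7. Over all members 9 of 53, or 17.0%, were called in at least 1 library. PCDHGB7 and the uncalled PCDHGB6 were 96.7% identical over 577 bp, and PCDHGB5 and the uncalled PCDHGB4 97.1% over 657 bp. The calls within these pairs may be affected, which was not tested. PCDHB8 and PCDHB13 matched over their whole windows, at 95.6%. PCDHGB3, PCDHGC3, PCDHGB2 and PCDHB6 had no second copy, and neither had PCDHAC1, PCDHAC2, PCDHGC4 or PCDHGC5. The part of lost reads in the uncalled windows was not tested.

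Across the locus, peaks of all libraries were merged into regions over chr5:140115721-140942544, which runs from 50 kb before PCDHA1 to 50 kb beyond the last gamma exon. The 826.8 kb held 20 regions, or 24.2 per Mb, beside 20.9 per Mb on chromosome 5 and 18.2 per Mb in the genome. The flank before PCDHA1 held 1 of the 20, and the flank beyond the gamma genes 4, or 80.0 per Mb. All 6 libraries called 8 of the 20, or 40.0%, and the same held for 35.5% of the 56447 merged regions of the genome. Of these 8, 3 lay in the flank beyond the gamma genes. A single library called 2 of the 20, or 10.0%, beside 27.4% in the genome. The density was uneven: the alpha genes held no region in 226.2 kb, the beta genes 2 in 198.0 kb and the gamma genes 10 in 182.5 kb, or 54.8 per Mb. The longest stretch without a peak in any library was 256.5 kb and took in all 15 alpha starts. The next was 170.1 kb with 10 beta starts, and another of 65.1 kb held 4 more. The uncalled alpha starts lay at a median of 56579 bp from the nearest peak of any library, the uncalled beta starts at 32313 bp and the uncalled gamma starts at 7995 bp. At the ends of the subfamilies, PCDHA1 had its nearest peak at 1528 bp, PCDHAC2 at 74669 bp, PCDHB1 at 9893 bp, PCDHB15 at 74748 bp, PCDHGA1 at 3863 bp and PCDHGC5 at 12508 bp.

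**Figure D5:**
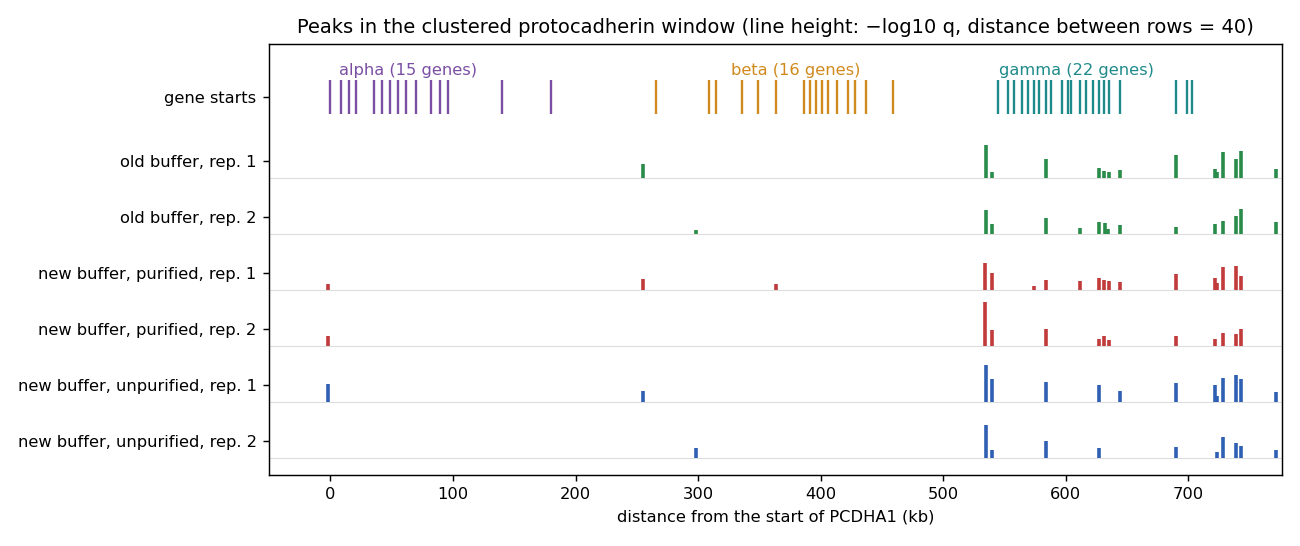
Peaks of the 6 libraries over the locus, plotted by distance from the start of PCDHA1 (kb). The top row marks the starts of the 15 alpha, 16 beta and 22 gamma genes, and line height is the −log10 q of a peak, with 40 as the distance between rows. The span of the alpha genes is empty in every row, and the lines gather at the gamma genes and beyond.

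9 of the 20 regions overlapped member start windows and 11 lay elsewhere. The strongest of the 20 was at chr5:140699711-140700783, at the start of TAF7, a subunit of the general transcription factor TFIID whose gene sits between the beta and gamma genes. Its −log10 q was 23.61, 17.35, 19.30, 31.86, 26.69 and 23.48 in the order given above. Every one of these values exceeded the highest of any clustered protocadherin, 16.95 at PCDHGC3. A second region called in all 6 libraries lay at chr5:140705626-140706218, 3863 bp before PCDHGA1, in the start window of the long noncoding RNA gene ENSG00000272070, with −log10 q from 4.52 to 16.53.

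At the far end, the region at chr5:140893326-140894288 was intergenic, between the last shared gamma exon and DIAPH1, a formin that nucleates actin filaments. It was called in all 6 libraries with −log10 q of 18.92, 9.57, 16.66, 9.68, 17.36 and 14.99. The summits there held 34 to 54 reads, more than at any called member start. The fold enrichment was 4.05 to 5.32, inside the range of the called member starts, from 3.82 at PCDHGB2 to 7.98 at PCDHGB3. The other regions called in all 6 libraries, at chr5:140904330-140905003 and chr5:140908564-140909125, lay within DIAPH1, at mean −log10 q of 13.94 and 14.15.

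The less recurrent regions outside member starts numbered 6. The only intergenic one before the cluster, at chr5:140163746-140164193, ended 1528 bp before PCDHA1. It was called in both purified new-buffer libraries and in unpurified replicate 1, at −log10 q of 4.49 to 12.90. Between alpha and beta, chr5:140420724-140421066 was called in 3 libraries, in the start window of the noncoding gene ENSG00000288892. Within beta, chr5:140464008-140464317 was called in 2 libraries, in the body of PCDHB1-AS1. The shared gamma introns held chr5:140887110-140887630, called in 5 libraries, and chr5:140888575-140889120, called in 4. The last, at chr5:140937296-140937748 by the start of DIAPH1-AS1, was called in 4 libraries.

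The study compared the protocols to learn whether the new buffer without purification gives libraries of the same quality, and the members were compared in the same way, with each library as 1 value. Old-buffer libraries called 6 and 7 member starts, purified new-buffer libraries 9 and 5, and unpurified libraries 4 and 3. The unpurified libraries were thus lowest and did not overlap with the other 4. Over all protein-coding genes they called 46.5% and 46.2% of start windows, within the 43.5% to 46.8% of the other 4. The means of member starts called were 6.5 ± 0.707, 7.0 ± 2.83 and 3.5 ± 0.707 (SD, n = 2 each). The unpurified libraries differed from the old buffer by −3.0 and from the purified new buffer by −3.5 starts, each with a two-sided exact permutation p of 0.33 and an adjusted p of 1 over 9 tests. With 2 libraries against 2, 0.33 is the smallest p that can be reached. The purified new buffer differed from the old buffer by 0.5 starts, less than the spread between replicates (exact permutation p = 1). Cutting every list to its strongest 30136 peaks gave −0.5 starts for the unpurified libraries against the old buffer, −2.5 for the unpurified against the purified new buffer and 2.0 for the purified new buffer against the old. After that cut the unpurified libraries still lay below the purified new-buffer ones, but no longer wholly below the old-buffer ones.

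After these values were seen, the 2 unpurified libraries were set against all 4 purified ones, a difference of −3.25 starts with a two-sided exact permutation p of 0.133, the smallest this design allows. It was −1.75 with peaks of −log10 q of at least 5 (p = 0.267, exact permutation test) and −1.5 with equal numbers of peaks (p = 0.40, exact permutation test). PCDHGB7 and PCDHGA11 were the 2 members called in all 4 purified libraries and in neither unpurified one, a pattern that 15 protein-coding genes, or 0.0744%, showed. With equal numbers of peaks PCDHGB7 was called in 3 libraries and PCDHGA11 in 2, so neither kept this pattern, and with a −log10 q minimum of 5 PCDHGA11 was called in 1. The reverse pattern was found in 40 protein-coding genes, none of them a member. Over all protein-coding genes, the unpurified libraries called 46.5% and 46.2% of start windows and the purified ones 43.5% to 46.8%. Their lowest background, a measure of relative depth, was 1.77 and 1.86 reads, beside 1.51 to 1.74 in the purified libraries.

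Peaks in the locus numbered 15 and 15 in the old buffer, 18 and 12 in the purified and 14 and 11 in the unpurified new buffer. They covered 7024 and 6198 bp, 7683 and 5267 bp, and 6762 and 5032 bp. For both measures the unpurified libraries overlapped with the purified new-buffer ones, and no difference between protocols had an adjusted exact permutation p under 1. In number of peaks the unpurified libraries lay below both old-buffer ones, by −2.5 on average (exact permutation p = 0.33, the smallest possible). With equal numbers of peaks this difference was 0.5.

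Genes related to the clustered protocadherins were read at their start windows in the same way, with lists chosen for their roles. Of 12 nonclustered protocadherins, which lie outside this cluster, 5 were called in at least 1 library, or 41.7%, and 2 in all 6. PCDH9 and PCDH12 were called in all 6 libraries, although no start of a protein-coding PCDH12 transcript was called. PCDH1, PCDH10 and PCDH18 were called in 4, and PCDH7, PCDH8, PCDH11X, PCDH15, PCDH17, PCDH19 and PCDH20 in none, although another transcript start of PCDH15 was called in 4. The 11 genes of CTCF, the cohesin ring and its loaders and release factors were all called in all 6 libraries. Among genes for silencing of the locus, 5 were called in all 6, SETDB1 and SMCHD1 included. The DNA methyltransferases DNMT1 and DNMT3A were called in 2 libraries each and DNMT3B in 4. At other transcript starts DNMT1 was called in all 6. Of 14 genes for intracellular partners and for cleavage of the proteins, 12 were called in all 6, PTK2 in 2 and RET in none, and at other transcript starts PTK2 was called in all 6. Other clustered families showed few calls as well: 3 of 39 HOX genes, or 7.69%, and 6 of 177 olfactory receptor genes on chromosome 11, or 3.39%, were called in at least 1 library. These shares were not compared by a test.

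Markers of B cells and of neurons were also read at their start windows. These calls do not by themselves establish the cell type. Among B-cell markers, MS4A1 and EBF1 were called in all 6 libraries, CD79A in 4, PAX5 and CD79B in 1 each, and CD22 in none. Of 8 neuronal markers, MAP2, SYP and SYT1 were called in all 6 and NEUROD1, RBFOX3, ELAVL3, SNAP25 and DCX in none, although another transcript start of SNAP25 was called in 4. The peak lists hold no expression data. The lists held 30136 to 38023 peaks with a median of 20 to 22 reads at the summit, and a start without a peak is below the calling threshold at this depth, which does not show that it is closed.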

How the data were processed

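Bulk ATAC-seq of fixed GM12878 cells was represented by 1 peak list for each of 6 libraries, grouped by the protocol named in the labels; whether DNA was purified was also read from the methods. The authors mapped reads to hg19 with Bowtie2 2.1.0, kept properly paired reads of mapping quality above 30, and removed duplicates with Picard 1.79 as well as mitochondrial reads. Narrow peaks came from MACS2, whose version is not given in the sources used here, with a q threshold of 0.01. The methods speak of merging the samples of a condition before calling, yet 1 list per library was analysed. The deposited lists give a score, a fold enrichment over local background (a ratio), and −log10 p and −log10 q values of the summit.

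Gene starts were those of GENCODE version 44 on GRCh37, the build of the files. An overlap of at least 1 bp was required. Reads at a summit were solved from the fold enrichment and p value with the Poisson distribution in SciPy 1.17.1. The solution was within 0.001 on the −log10 scale for 100.0% of peaks. Total reads per library are unknown, so depth is relative. Overlap calls were tested on simulated data and checked with bedtools 2.31.1. Second copies were searched with blastn 2.17.0 at an e-value of 1e-10, and sequences were read with samtools 1.23.1. Protocols were compared with two-sided exact permutation tests over libraries in NumPy 2.4.6, adjusted by the Benjamini-Hochberg method over 9 tests. Members, gene lists and alternatives were chosen with earlier results of these data known. Named were every called member, the first and last gene of each subfamily, the C-type genes, each region outside member starts that all 6 libraries called, and the listed genes that some libraries did not call; the CpG classes, the 9-base elements, the remaining names and the comparison of 2 against 4 libraries were added after the data had been seen. Alternatives were other windows, flanks, transcript starts, overlaps and merging, a −log10 q minimum of 5, equal numbers of peaks, each replicate left out, and a replicate block. Of the gene lists, 2 genes are not reported here.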

Additional observations from a re-analysis of the deposited data

How the results depend on the processing

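The counts of member starts called in at least 1 library and in all 6 were 9 and 3 with windows of 250 bp or 1 kb, all transcript starts, an overlap of at least 100 bp or the summit inside the window, and 7 and 3 with a −log10 q minimum of 5 or equal numbers of peaks. Leaving out 1 library gave 7 to 9 and 3. The number of regions was 17 to 20 and the number in all libraries 7 to 9 under every setting run. PCDHGA11 was called in 1 library with that minimum and in 2 with equal numbers of peaks, in place of 4.

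The small protocol differences were not stable. With a −log10 q minimum of 5, the purified new buffer minus the old buffer was 0.5 peaks and 144 bp. With equal numbers of peaks it was 2.0 peaks and 688 bp, and the unpurified new buffer minus the old buffer was 0.5 peaks and 191 bp. Without flanks and with flanks of 100 kb the first difference was 161 and 511 bp. Leaving out 1 library moved it from −1.5 to 2.5 starts, from −3.0 to 3.0 peaks and from −1344 to 1072 bp; replicate 1 of the purified new buffer gave the lowest value each time and replicate 2 the highest. It moved the unpurified minus the old buffer from −3.5 to −2.5 starts, −4.0 to −1.0 peaks and −1579 to 151 bp, and the unpurified minus the purified new buffer from −5.5 to −1.5 starts, −5.5 to 0.5 peaks and −1786 to 630 bp. The cause was not tested. No test could pass a usual threshold under any setting. The smallest possible exact permutation p is 0.33 for 2 libraries against 2 and 0.133 for 4 against 2.

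Replicate numbers did not pair the libraries: deviations of same-numbered libraries correlated at −0.00407, −0.00262 and 0.0146 over 20064 regions. The replicate block left the differences at 0.5, −3.0 and −3.5 starts with a smallest p of 0.5 (exact permutation of 2 pairs). Called member summits held 9 to 32 reads, and the part of depth in the uncalled starts was not tested.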
